A study of Mus musculus with 8 samples.

Results

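Astrocyte genes were examined in the hippocampus of mice that carried either a control hairpin (hpCTL) or a hairpin for the microRNA miR-708-5p (hp708). The genes were chosen by name: 38 genes known for astrocyte identity, homeostasis or reactivity, out of 40659 gene identifiers in the count table. All 38 were found by symbol, and all 38 passed the filter on low counts that left 17252 genes for testing. They divide into 17 homeostatic genes and 21 reactive genes, the latter including Gfap and Vim.

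All 8 mice were C57BL/6JRj males that received recombinant adeno-associated virus by stereotactic injection into the dorsal and ventral hippocampus at postnatal week 7 to 8. Hippocampi were collected 4 weeks later, and the sample labels give the age as postnatal week 12 to 13. Poly(A) RNA of 4 hpCTL and 4 hp708 mice was sequenced, 1 library per mouse, with 22606824 to 28462428 counted reads per library. In both groups the hairpin was driven by the human synapsin promoter, which is active in neurons, so that astrocytes were not the cells meant to make it. There was no uninjected group. Mature miR-708-5p is too short for these libraries, and its level was not analysed here. The labels give no surgery day, cage or sequencing batch. The animal of hp708 replicate 1 is listed under hpCTL in the source data of the Nnat qPCR, and the library was kept as labelled. Fitted values that turn on it are also given without it, while descriptions of all 8 libraries include it.

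Astrocytes tile the brain and keep its extracellular space in order. They take up glutamate and potassium, make glutamine, move water at their end-feet around blood vessels and are joined into a network by gap junctions. After injury, infection or inflammation they become reactive: the intermediate filament protein GFAP increases, vimentin is induced again, and sets of genes for cytokine receptors, chemokines, matrix proteins and complement are switched on. In RNA from whole tissue, more cells of a type and more RNA per cell cannot be told apart, and several of the reactive genes are also made by microglia, blood vessels or choroid plexus.

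Since the injected microRNA would act through its seed, the mature sequence is shown first with the seed (bases 2 to 8) in capitals, from RefSeq (GRCm38.p6, chr7:96249450-96249472, plus strand).
miR-708-5p: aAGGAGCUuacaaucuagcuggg

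A match to the seed was present in the longest annotated 3′ untranslated region of 7 of the 38 genes (18.4%), against 3927 of 14809 tested genes (26.5%). The sites searched were AGCTCCTA (8mer), AGCTCCT (7mer-m8) and GCTCCTA (7mer-A1). Among the 7 were the glutamate transporter gene Slc1a2, the water channel gene Aqp4 and the oncostatin M receptor gene Osmr. The windows of 4 genes are printed 5′ to 3′ in the sense of the transcript, with the match in capitals (GRCm39). They show which members could pair with the seed, and a match is a description and not proof of a site.
Slc1a2 (chr2:102617957-102617978, plus strand): cacaaccagaaactcAGCTCCT
Slc7a10 (chr7:34904497-34904518, plus strand): gcgtccatcagtccAGCTCCTA
Osmr (chr15:6843588-6843609, minus strand): tcttggtaacagcagAGCTCCT
Aspg (chr12:112093183-112093204, plus strand): ctgggatgggctgctAGCTCCT

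Slc7a10, the transporter of small neutral amino acids such as D-serine, had a further 7mer-m8 match, and Aldoc and Fbln5 each had a 7mer-A1 match. No member, with or without a match, passed the test between the groups that follows.

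The comparison of hp708 with hpCTL asks whether the hairpin for miR-708-5p was accompanied by a change of hippocampal transcripts. No astrocyte gene was called, at a false discovery rate (FDR) below 0.05 over all tested genes, by the quasi-likelihood test of edgeR that included 3 surrogate variables, which are hidden factors estimated from the counts. Over all genes the same test called 1 of 17252 (0.0058%). At an unadjusted p below 0.05 the test marked 1 member as higher in hp708 (Slc1a2) and 2 as lower (Cxcl10 and Ggta1). The background is 2.82% of all tested genes higher and 4.87% lower at that threshold, 7.7% in all, so 3 of 38 is close to it. Without surrogate variables 0 of 38 members and 1.81% of all tested genes had an unadjusted p below 0.05. In no member were the CPM values (counts scaled to 1000000 reads per library) of the groups free of overlap, where 1.51% of all tested genes had groups that did not overlap. Exact two-sided permutation tests of 4 against 4 libraries, which can give a p no smaller than 0.0286, reached at lowest 0.114 among the homeostatic and 0.286 among the reactive genes.

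The homeostatic genes were nearly level. Their median log2 fold change was 0.02 with surrogate variables and 0.02 without, beside -0.01 over all tested genes in each fit. With surrogate variables the changes ran from -0.16 to 0.16 and the 95% intervals from -0.38 to 0.43. Without them the changes ran from -0.14 to 0.28 and the intervals from -0.47 (Fabp7) to 0.62 (Aqp4). In hp708, 10 of the 17 were higher and 7 lower, and 10 were higher without surrogate variables too.

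The glutamate-handling genes are among the most abundant astrocyte transcripts. Per kilobase of exon, averaged over the 8 libraries, Glul (glutamine synthetase, which turns glutamate into glutamine) stood at 360 CPM, Slc1a2 (the main glutamate transporter of the forebrain) at 171 and Slc1a3 (another glutamate transporter) at 51.6. Slc1a2 measured 2135, 2314, 2384 and 2302 CPM in hpCTL replicates 1 to 4 and 2653, 2112, 2736 and 2515 CPM in hp708 replicates 1 to 4. hp708 replicates 1, 3 and 4 lay above all hpCTL libraries, and hp708 replicate 2 lay below all of them. The fitted log2 fold change was 0.16 ± 0.04 (SE, 95% interval 0.07 to 0.25), with an unadjusted edgeR p of 0.00479 and an FDR of 0.449. Without surrogate variables the log2 fold change was 0.13, and the exact permutation test gave p = 0.229. Without hp708 replicate 1 the fitted value was 0.06, with an edgeR FDR of 0.678. Glul measured 1546, 1364, 1413 and 1467 CPM in hpCTL and 1381, 1540, 1430 and 1240 CPM in hp708, and the groups overlapped almost fully. Slc1a3 had means of 742 ± 85.4 CPM in hpCTL and 763 ± 43.2 CPM in hp708 (SD, n = 4). Slc7a10 had 29.5 ± 3.86 and 30 ± 4.19 CPM. Its count is uncertain, since 50.2% of its exon bases overlap Lrp3 on the other strand and the strand setting of the counting is not given in the sources used here.

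The groups overlapped in all 7 identity genes, and their highest-to-lowest ratios over the 8 libraries ran from 1.33 (Aldoc) to 1.64 (Sox9). Aldoc (a glycolytic enzyme enriched in astrocytes) averaged 792 ± 58.3 CPM in hpCTL and 726 ± 60.3 CPM in hp708. S100b (a calcium-binding protein) averaged 94.0 ± 17.4 and 93.4 ± 7.19 CPM. Sox9 (a glial transcription factor) averaged 31.8 ± 5.31 and 35.6 ± 3.16 CPM. Aldh1l1 (a folate enzyme used to mark astrocytes) had 51.0 ± 1.84 and 49.4 ± 7.99 CPM, Fgfr3 (a growth factor receptor) 117 ± 6.10 and 122 ± 18.4 CPM, Fabp7 (a fatty acid binding protein, also made by neural stem cells) 13.0 ± 1.48 and 11.8 ± 2.13 CPM, and Ntsr2 (a neurotensin receptor) 109 ± 17 and 111 ± 5.34 CPM. Exons of Sox9, Fgfr3 and Ntsr2 overlap genes of the other strand over 13%, 13.1% and 16.9% of their bases.

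The end-foot and gap junction genes fell into a steady and a more variable set. Mlc1 and Hepacam, whose products form a complex at astrocyte contacts, averaged 182 ± 5.41 and 184 ± 11.7 CPM (Mlc1) and 86.5 ± 2.46 and 87.2 ± 6.98 CPM (Hepacam). The connexin genes Gja1 (connexin 43) and Gjb6 (connexin 30) averaged 185 ± 7.04 and 178 ± 17.3 CPM (Gja1) and 49.9 ± 3.35 and 45.5 ± 3.23 CPM (Gjb6). Gjb6 gave the smallest permutation p of all members, 0.114 in the exact test, and its groups still overlapped. Aqp4, the water channel of the end-feet, measured 123, 147, 168 and 153 CPM in hpCTL and 163, 191, 135 and 227 CPM in hp708. hp708 replicates 2 and 4 were above the hpCTL range and replicates 1 and 3 inside it. Its log2 fold change was 0.16 ± 0.12 (SE, edgeR FDR 0.797), 0.28 without surrogate variables and 0.33 without hp708 replicate 1 (edgeR FDR 0.203), and the exact permutation p was 0.257. Kcnj10, the potassium channel Kir4.1, measured 151, 183, 214 and 200 CPM in hpCTL and 191, 200, 187 and 287 CPM in hp708. Its hp708 replicate 4 stood apart while the other hp708 libraries lay within the hpCTL range.

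**Figure D1:**
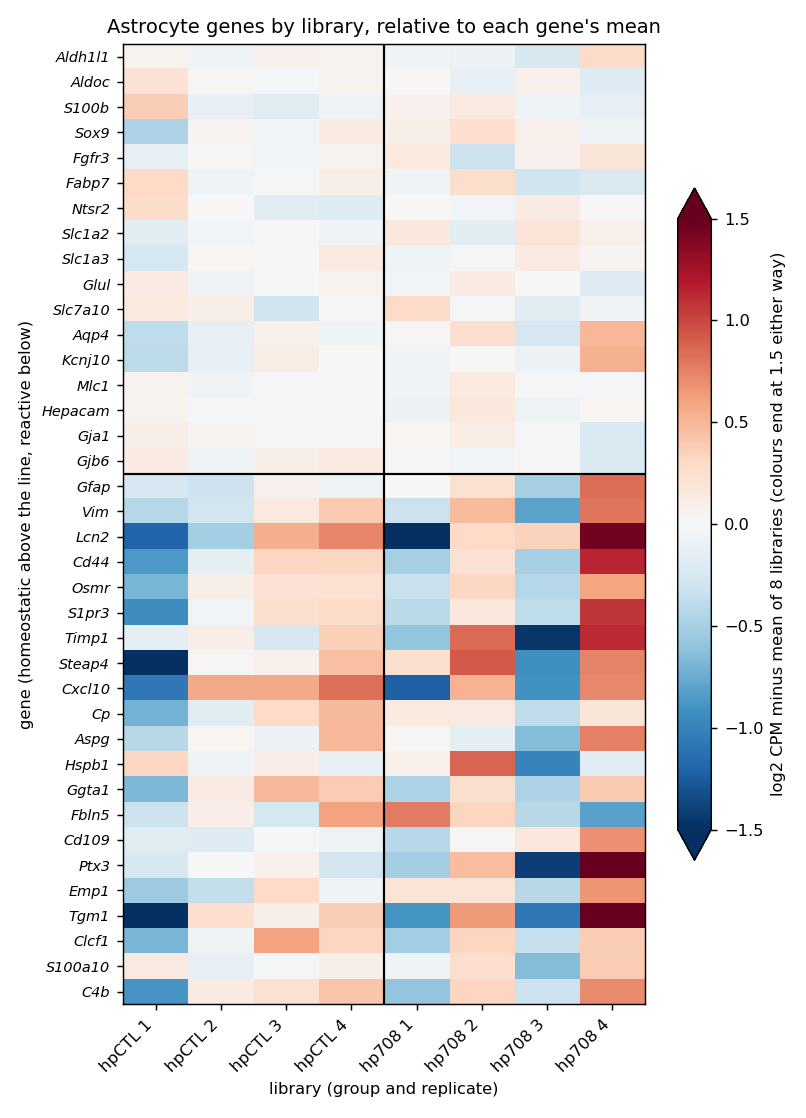
Heat map of the 38 genes (rows, homeostatic above the line and reactive below) in the 8 libraries (columns), as log2 CPM minus the gene's mean over the 8 libraries, with colours ending at 1.5 either way. The 17 homeostatic rows are paler throughout, and in the reactive rows hpCTL 1, hp708 1 and hp708 3 are mostly blue and hp708 4 mostly red.

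The reactive genes differed far more, but between mice within each group. The ratio of the highest to the lowest of the 8 libraries had a median of 3.02 over the 21 reactive genes (2.05 to 31.9) and 1.39 over the 17 homeostatic genes (1.15 to 1.90). Low counts widen this ratio, so it was also read above a floor, which limits that widening without matching abundance. Of the 12507 tested genes with a mean of at least 5 CPM, the median ratio was 1.36, and the 12 reactive genes among them had a median of 2.77, each of the 12 above 1.36. Gfap had a ratio of 2.53, and 4.45% of those genes had one at least as large. For Slc1a2 that share was 62.8% and for Mlc1 93.8%.

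Gfap, the filament gene most used to mark reactive astrocytes (GRCm39 chr11:102778159-102791738, minus strand), measured 588, 564, 732 and 666 CPM in hpCTL and 701, 823, 494 and 1250 CPM in hp708. The hp708 libraries held both the lowest and the highest of the 8 values, and the SD was 319 CPM in hp708 and 76.5 CPM in hpCTL around means of 817 and 637 CPM (n = 4 each). Its log2 fold change was 0.20 ± 0.23 (SE, 95% interval -0.35 to 0.75, edgeR FDR 0.885) and 0.36 without surrogate variables. The exact permutation test gave p = 0.429. Single libraries decided the value: it was -0.03 without hp708 replicate 4, 0.49 without hp708 replicate 1 and 0.50 without hp708 replicate 3.

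Vim, which encodes vimentin and is also made by blood vessel, ependymal and choroid plexus cells, measured 92.1, 102, 137 and 162 CPM in hpCTL and 98.9, 172, 70.8 and 216 CPM in hp708. As with Gfap, hp708 replicate 3 was lowest and hp708 replicate 4 highest. The log2 fold change was -0.14 ± 0.26 (SE, edgeR FDR 0.932) with surrogate variables and 0.18 without, so that its sign depended on the fit. Without hp708 replicate 1 it was 0.37 and without hp708 replicate 4 it was -0.41. The exact permutation p was 0.857.

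**Figure D2:**
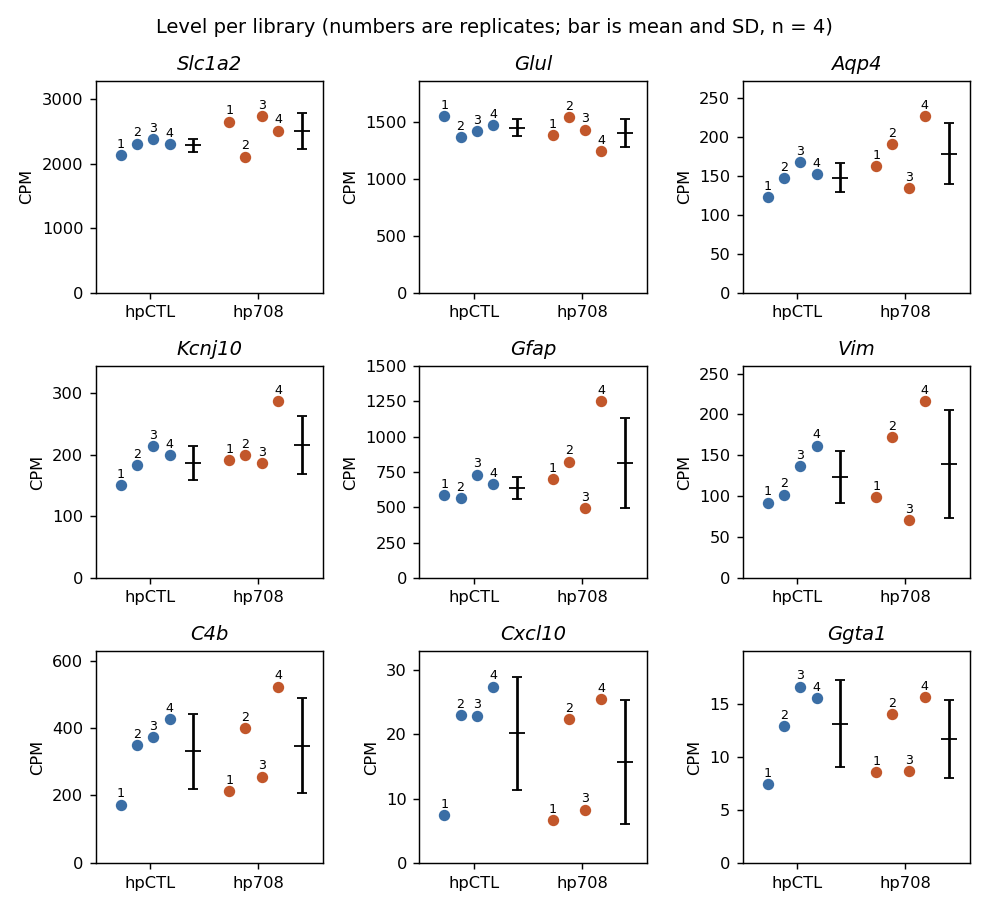
CPM of 9 genes in each library (points, with the replicate number), with the mean and SD of each group (n = 4) at the right of its points, on axes that start at 0. The groups overlap in all 9 panels, and hp708 replicate 4 is highest for Aqp4, Kcnj10, Gfap, Vim and C4b. For Vim, C4b, Cxcl10 and Ggta1, hpCTL 1, hp708 1 and hp708 3 lie below the other 5 libraries.

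A further 10 genes are described as induced in astrocytes by injury of several kinds. Cd44 (a hyaluronan receptor) measured 6.64, 10.9, 15.0 and 14.9 CPM in hpCTL and 8.55, 14.0, 8.53 and 26.6 CPM in hp708. S1pr3 (a sphingosine-1-phosphate receptor) measured 9.07, 16.8, 20.3 and 21.1 CPM in hpCTL and 13.0, 19.3, 13.2 and 36.3 CPM in hp708. Osmr (the oncostatin M receptor, upstream of STAT3) measured 9.35, 16, 17.5 and 17.6 CPM in hpCTL and 11.9, 18.7, 11.2 and 22.7 CPM in hp708. In all 3 receptor genes hpCTL 1, hp708 1 and hp708 3 were the lowest libraries and hp708 4 the highest. Lcn2 (lipocalin 2, an iron-scavenging protein) ran from 0.580 CPM in hp708 1 to 4.92 CPM in hp708 4, and Timp1 (a metalloproteinase inhibitor) from 0.298 CPM in hp708 3 to 1.78 CPM in hp708 4. Steap4 (a metalloreductase) ran from 0.393 CPM in hpCTL 1 to 2.13 CPM in hp708 2. Reads were few for these: the smallest library count was 16 for Lcn2, 7 for Timp1 and 11 for Steap4.

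Of the remaining genes of that set, Cp (ceruloplasmin, a copper-carrying ferroxidase also made by choroid plexus) averaged 26.7 ± 9.08 and 26.5 ± 4.44 CPM. Aspg (an asparaginase) averaged 4.41 ± 1.19 and 4.55 ± 1.91 CPM, and Hspb1 (a small heat shock protein) 7.73 ± 1.08 and 7.87 ± 4.12 CPM. The group means of these 3 genes lay closer together than their SDs. Hspb1 was highest in hp708 2 at 13.5 CPM, the library in which the sums of the choroid plexus list (4491 CPM), the ependymal list (92.6 CPM) and the oligodendrocyte list (8581 CPM) were highest too, and whether those cells took part in that value was not tested.

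Cxcl10, a chemokine that draws T cells and is induced by interferons, had the largest fitted difference of the reactive genes in the fit with surrogate variables. Without them that of Tgm1 was the largest, at 1.35 on the log2 scale (edgeR FDR 0.999). Cxcl10 measured 7.39, 23, 22.9 and 27.4 CPM in hpCTL and 6.63, 22.3, 8.27 and 25.5 CPM in hp708. The values fell into a low set of 3 libraries, hpCTL 1, hp708 1 and hp708 3, and a high set of 5, with nothing between 8.27 and 22.3 CPM, and each group held libraries of both sets. The log2 fold change was -0.93 ± 0.16 (SE, 95% interval -1.31 to -0.54), with an unadjusted edgeR p of 0.000664 and an FDR of 0.294. Without surrogate variables it was -0.37 (95% interval -1.46 to 0.73), and the exact permutation p was 0.514. Without hp708 replicate 1 it was -0.22 (edgeR FDR 0.630) and without hp708 replicate 4 it was -1.32 (edgeR FDR 0.0875). With the surrogate variables, edgeR's likelihood ratio test gave it an FDR of 0.000741 and DESeq2 one of 0.000119, and neither tool called it without them.

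The promoter of Cxcl10 is shown because the gene's levels followed those of the interferon genes given further on. It holds an ISRE core (an interferon response sequence), 2 kappaB sequences and an AP-1 sequence, in capitals, counted from the annotated start at -213 to -204, -159 to -150, -103 to -94 and -74 to -68 (RefSeq, GRCm38.p6, chr5:92348840-92349139, minus strand).
Cxcl10 promoter: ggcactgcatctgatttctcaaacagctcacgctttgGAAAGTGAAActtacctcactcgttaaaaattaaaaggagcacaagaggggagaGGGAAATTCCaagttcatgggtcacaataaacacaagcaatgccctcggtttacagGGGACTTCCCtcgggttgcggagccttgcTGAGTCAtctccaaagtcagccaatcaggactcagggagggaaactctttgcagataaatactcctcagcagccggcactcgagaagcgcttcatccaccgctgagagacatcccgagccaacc

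The Gfap promoter, shown because Gfap leads the reactive set, holds a STAT sequence, in capitals, at -2 to 7 (RefSeq, GRCm38.p6, chr11:102897151-102897450, minus strand).
Gfap promoter: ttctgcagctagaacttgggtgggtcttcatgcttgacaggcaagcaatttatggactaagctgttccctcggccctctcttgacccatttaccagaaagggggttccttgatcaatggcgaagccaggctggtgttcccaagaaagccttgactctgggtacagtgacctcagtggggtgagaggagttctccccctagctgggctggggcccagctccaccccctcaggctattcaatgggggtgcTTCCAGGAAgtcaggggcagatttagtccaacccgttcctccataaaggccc

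The promoter table held 32 of the 38 genes. On both strands, the ISRE core (GAAA, any 2 bases, GAAA) was found in 4 of the 32 (Cxcl10, Glul, Fbln5 and Tgm1) and in 3.44% of 32851 promoters of the same 300 bases. TTCNNNGAA (STAT) was found in 7 of the 32 and 8.3% of all promoters. TGANTCA (AP-1) was found in 5 and 7.81%, and kappaB (GGGA, any 4 bases, CC) in 12 and 20.7%. A member was counted if any of its promoters held the string, while the shares are over single promoters. The counts and the shares are therefore in different units, and no enrichment can be read from them. The 4 letter strings were searched independently and can overlap, and a match says nothing of binding.

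Ggta1 and Fbln5 stand for genes reported in astrocytes after endotoxin. Ggta1, a galactosyltransferase, measured 7.43, 12.9, 16.6 and 15.5 CPM in hpCTL and 8.55, 14.0, 8.61 and 15.6 CPM in hp708, with the same 3 libraries lowest as for Cxcl10. Its log2 fold change was -0.40 ± 0.12 (SE, 95% interval -0.68 to -0.12), with an unadjusted edgeR p of 0.0123, an FDR of 0.525 and -0.16 without surrogate variables. The exact permutation p was 0.771, and without hp708 replicate 1 the fitted value was -0.08. Fbln5 (fibulin 5, an elastic fibre protein) went another way than the other reactive genes. It measured 3.43, 4.59, 3.57 and 6.53 CPM in hpCTL and 7.36, 5.35, 3.20 and 2.44 CPM in hp708, highest in hp708 1 and lowest in hp708 4. The summed level of 10 mural cell and fibroblast markers was also highest in hp708 1, at 407 CPM against 255 to 357 CPM in the other libraries, and the part of those cells was not tested.

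The next 6 genes are described in astrocytes after ischaemia. Cd109 (a surface protein that binds TGF-beta) measured 6.96, 6.91, 7.96 and 7.51 CPM in hpCTL and 5.87, 8.00, 8.91 and 12.7 CPM in hp708. Emp1 (an epithelial membrane protein) measured 2.71, 3.10, 4.88 and 3.83 CPM in hpCTL and 4.57, 4.52, 2.98 and 6.28 CPM in hp708. Ptx3 (pentraxin 3, a secreted pattern recognition protein) measured 0.964, 1.14, 1.19 and 0.939 CPM in hpCTL and 0.797, 1.57, 0.426 and 4.25 CPM in hp708. In each of these 3 genes hp708 4 was the highest library. Tgm1 (transglutaminase 1) measured 0.178, 0.962, 0.861 and 1.05 CPM in hpCTL and 0.435, 1.26, 0.384 and 5.70 CPM in hp708. Its counts were 5 in the lowest and 138 in the highest library. Clcf1 (a cytokine of the interleukin 6 family) averaged 2.99 ± 1.07 and 2.77 ± 0.843 CPM, and S100a10 (an S100 family protein that partners annexin A2) 16.6 ± 1.32 and 16.7 ± 4.84 CPM.

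C4b, the complement component 4 gene (GRCm39 chr17:34947354-34962912, minus strand), came next after Gfap among the reactive genes per kilobase of exon, at 56.0 CPM against 127 CPM. It measured 173, 349, 374 and 427 CPM in hpCTL and 212, 400, 256 and 523 CPM in hp708, and hpCTL 1, hp708 1 and hp708 3 were again the lowest. The log2 fold change was -0.24 ± 0.12 (SE, edgeR FDR 0.704) with surrogate variables, 0.07 without, 0.19 without hp708 replicate 1 and -0.49 without hp708 replicate 4. The exact permutation p was 0.914. Reads of C4b may be shared with its near-identical neighbour C4a, so its level is uncertain.

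Over the 21 reactive genes the median log2 fold change was -0.09 when surrogate variables were included, with 7 of 21 higher in hp708, and 0.18 when they were left out, with 17 of 21 higher. With the homeostatic genes, 17 of 38 were higher with surrogate variables (46.8% of all tested genes were) and 27 of 38 without. The share of all tested genes higher without surrogate variables was not computed, and their median log2 fold change in that fit was -0.01. The sign of the reactive set also turned with single libraries. Without hp708 replicate 1 its median was 0.37, 17 of 21 were higher (48.7% of all tested genes were), and 8 had an unadjusted p below 0.05, all higher (Gfap, Vim, C4b, Cd44, S1pr3, Cd109, Lcn2 and Tgm1), where 5.44% of all tested genes were higher at that threshold. That fit called no member and 56 of 17425 genes (0.321%). Without hp708 replicate 4 the median was -0.36, 2 of 21 were higher (48.2% of all tested genes were), and 7 had an unadjusted p below 0.05, all lower (Vim, C4b, Cd44, Osmr, S1pr3, Cxcl10 and Ggta1), where 5.71% of all tested genes were lower. That fit called no member and 3 of 17467 genes (0.0172%). The homeostatic median was 0.04 and 0.01 in these fits. At the same threshold, leaving out hp708 replicate 1 gave 2 homeostatic genes higher (Aqp4 and Kcnj10) and 1 lower (Aldoc), and leaving out hp708 replicate 4 gave 1 higher (Slc1a2) and 1 lower (Aldh1l1). In the fits that had no surrogate variables the reactive median was 0.32 when hp708 replicate 1 was left out and -0.13 when hp708 replicate 4 was, with an unadjusted edgeR p below 0.05 for 1 of the 21 in the former (Cd109, higher, as were 1.37% of all tested genes) and 0 in the latter (0.676% of all tested genes were lower).

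**Figure D3:**
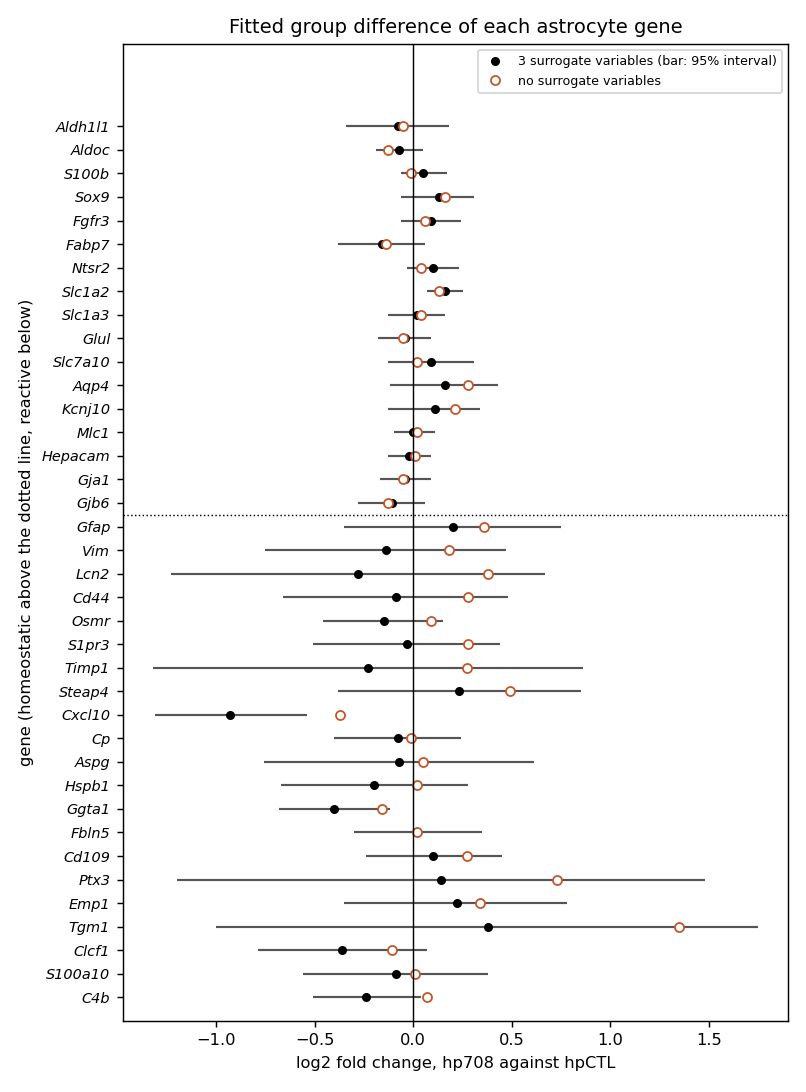
Log2 fold change of each gene, hp708 against hpCTL (horizontal axis), fitted with 3 surrogate variables (black points, bars are 95% intervals) and without (open circles). Homeostatic genes above the dotted line lie between -0.16 and 0.16 with surrogate variables, and of the 21 reactive genes below it 7 are above 0 with them and 17 without.

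The order of the libraries was shared by much of the reactive set. hp708 replicate 4 was the highest library for 14 of 21 reactive genes and 4 of 17 homeostatic genes, against 15.2% of all tested genes. hpCTL replicate 1 was the lowest for 10 of 21 reactive and 4 of 17 homeostatic genes, against 21.1% of all tested genes. The median over the reactive genes of log2 CPM relative to the mean of 8 libraries was -0.66, -0.04, 0.15 and 0.31 in hpCTL 1 to 4 and -0.40, 0.31, -0.49 and 0.71 in hp708 1 to 4. The same median over the homeostatic genes stayed between -0.04 and 0.05 in every library. Low and high libraries were thus found in each group.

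The 3 libraries hpCTL 1, hp708 1 and hp708 3, singled out after their values were seen and so described without a test, were the 3 lowest for 9 of 21 reactive genes (Vim, Cd44, Osmr, S1pr3, Cxcl10, Ggta1, Tgm1, Clcf1 and C4b). This held for 0 of 17 homeostatic genes and for 6.03% of all tested genes. It also held for 9 of 10 interferon-induced genes (such as Irf7, Isg15 and Oasl2) and for 8 of 10 microglial genes (such as Cx3cr1, Tmem119 and C1qa). The 10 interferon-induced genes summed to 154 to 170 CPM in these 3 libraries and to 287 to 344 CPM in the other 5. The microglial genes summed to 656 to 810 CPM in the 3 and 933 to 1160 CPM in the 5. Gfap did not follow this split, as hpCTL 2 was lower than hp708 1 and hpCTL 1. Whether interferon-responding cells or microglia took part in the reactive genes' spread was not tested.

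**Figure D4:**
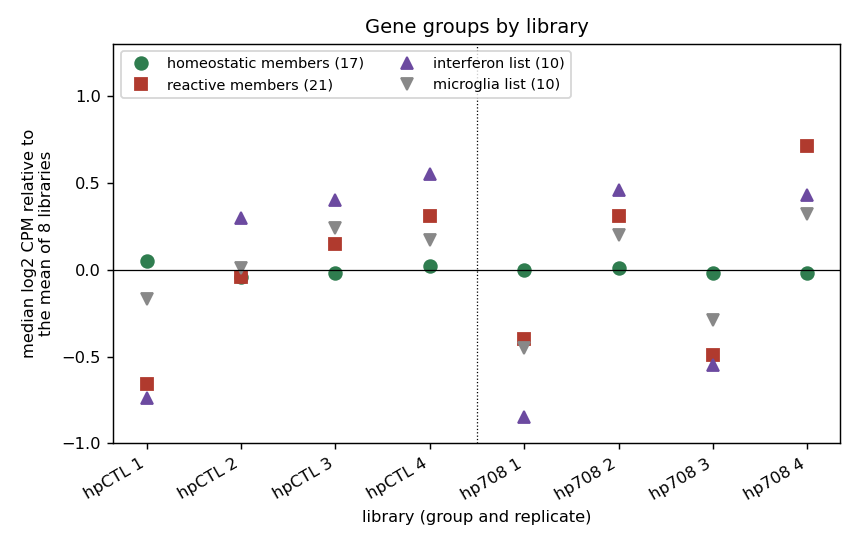
Median log2 CPM relative to the mean of the 8 libraries (vertical axis) for the 17 homeostatic and 21 reactive genes and for lists of 10 interferon-induced and 10 microglial genes, by library. The homeostatic points stay between -0.04 and 0.05, and the reactive points run from -0.66 in hpCTL 1 to 0.71 in hp708 4, low in the same 3 libraries as the interferon list.

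Across the 8 libraries, the genes whose log2 CPM followed that of Gfap most closely were Aqp4 (Pearson's r 0.93, Spearman's rho 0.93), Ptx3 (0.92 and 0.76), Emp1 (0.91 and 0.86) and Vim (0.88 and 0.83). Of 37 relations computed, these 4 had an exact permutation p for Pearson's r below 0.05 after Benjamini-Hochberg adjustment (0.0229 for Aqp4 and Emp1, 0.0282 for Ptx3 and Vim), and none did for Spearman's rho (0.0826 for Aqp4, 0.129 for Emp1 and Vim, 0.151 for Ptx3). Unadjusted, the exact permutation p for r was 0.000893 for Aqp4, 0.00305 for Ptx3, 0.00124 for Emp1 and 0.00253 for Vim. Without hp708 3 and hp708 4, the libraries farthest from the median of Gfap, r was 0.88 for Aqp4, 0.87 for Emp1, 0.72 for Vim and 0.48 for Ptx3, so the relation of Ptx3 rested on those libraries. Aqp4 was thus the homeostatic gene closest to Gfap. Aldoc ran the other way, with r = -0.82 and -0.75 without those 2 libraries (adjusted exact permutation p 0.081 over all 8).

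Among the 20 reactive genes other than Gfap, 19 had a positive r, with a median of 0.72 over 8 libraries and 0.49 without hp708 3 and 4. Among the 17 homeostatic genes the median was -0.05 and 0.01. Aldh1l1 had r = 0.78 over 8 libraries and -0.29 without these 2, so that its relation rested on them. With each group centred on its own mean the medians were 0.73 and -0.07. Libraries share their depth scaling between genes, and the coefficients describe these 8 mice.

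**Figure D5:**
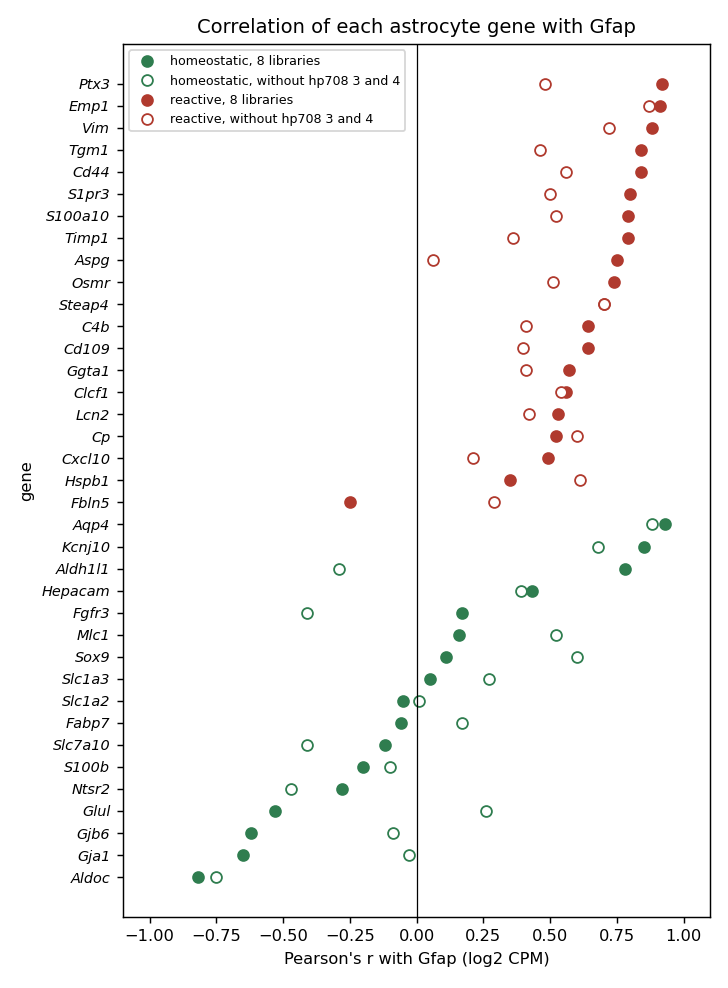
Pearson's r of each gene's log2 CPM with that of Gfap (horizontal axis) over 8 libraries (filled) and without hp708 3 and hp708 4 (open), reactive genes in red and homeostatic genes in green. All reactive genes but Fbln5 are right of 0 over the 8 libraries, and Aqp4, at 0.93, is the highest of the homeostatic genes.

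Of 36 further homeostatic genes, the surrogate variable fit gave an unadjusted p below 0.05 to 1 higher (Atp1b2, a sodium pump subunit, 392 CPM in hpCTL and 453 CPM in hp708 on average) and 1 lower (Mfge8, a phagocytosis bridge protein, 148 and 120 CPM). Their median log2 fold change was 0.02, and -0.01 without surrogate variables. Of 32 further reactive genes tested, 1 was higher at that threshold (Ptgs2, cyclooxygenase 2; 2.82% of all tested genes were) and 9 were lower (4.87% of all tested genes were), and none was called. That list was not tested against the members. Among the 9 were Iigp1, Gbp2 and Psmb8, which are known to be induced by interferons, the antigen presentation genes H2-D1 and H2-T23, and the complement gene C3. Their list had a median log2 fold change of -0.14, and of 0.04 without surrogate variables, where 0 of 32 had an unadjusted edgeR p below 0.05. Serpina3n, a protease inhibitor that is a sensitive mark of reactive astrocytes, measured 99.1, 81.6, 104 and 106 CPM in hpCTL and 83.3, 115, 94.9 and 241 CPM in hp708, highest in the same library as Gfap.

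Among the 10 interferon-induced genes, 9 were lower at an unadjusted edgeR p below 0.05 in the fit that had surrogate variables (median log2 value -0.64; 4.87% of all tested genes were lower), and none was called. Without surrogate variables the median was -0.22 and 0 of 10 passed that threshold, as 1.81% of all tested genes did. Among 10 microglial genes 7 were lower at that threshold with them (median -0.27) and 0 without (median -0.13). Cxcl10 and Ggta1 thus shared their sign and their dependence on the fit with these lists. Leaving out hp708 replicate 1, with surrogate variables, gave 2 of the 10 interferon-induced genes lower at that threshold (median -0.09) and 1 of the 10 microglial genes lower (median 0.04), where 6.72% of all tested genes were lower. Of the further reactive genes 6 were then higher and 2 lower (median 0.09), with Mt2 called as higher (a metallothionein, log2 fold change 0.55), and of the further homeostatic genes 3 were higher and 6 lower (median 0.05), with Mfge8 called as lower (-0.46). The subiculum markers described next were lower in 8 of 8 (median -1.38, Slc17a6 and Tshz2 called) in that fit, and 8 of 10 oligodendrocyte genes (median 0.35) and 4 of 10 ependymal genes (median 0.44) were higher, where 5.44% of all tested genes were higher and 0.321% were called. Of the choroid plexus genes 3 of 10 were lower (median -0.29, against 0.37 with all libraries), of the mural genes 2 were higher and 1 lower, and of the endothelial genes 1 and of the neuronal genes 2 were higher. In the same fit without surrogate variables no gene of any list was called. At that threshold 5 of 8 subiculum genes were lower, where 596 of 17425 tested genes passed it in either direction. It was passed by 0 of 10 oligodendrocyte, 0 of 10 ependymal and 0 of 10 choroid plexus genes. With all 8 libraries, the lists for endothelium, mural cells and oligodendrocytes held no gene past that threshold. The ependymal list held 1 of 10, which was higher (Dnah11, a cilia motor gene). Of 8 subiculum markers 3 were lower (Nts, Slc17a6 and Tshz2), with a list median of -0.49, and of -0.54 without surrogate variables. Relative to the mean of the 8 libraries the subiculum list was lowest in hp708 4, at a median of -1.23 on the log2 scale, the library with the highest values of many reactive genes, and the part of the subicular share in those values was not tested. The choroid plexus list held none either, while its summed level ran from 60.8 to 2119 CPM in hpCTL and from 117 to 4491 CPM in hp708. The part of these cells in the values of Cp and Vim was not tested. Neuronal markers summed to 10733 to 11100 CPM in hpCTL and 10217 to 12560 CPM in hp708, with 1 of 12 (Camk2a) higher at an unadjusted p below 0.05.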

How the data were processed

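The deposited values were raw counts per gene. Per the labels and the study's methods, the authors mapped reads to GRCm39 with STAR 2.7.8a and counted them with featureCounts 1.6.4, and strand and multi-mapping settings are not given in the sources used here. Of 40659 identifiers, 39641 were named from a GENCODE annotation of the same build. The members and comparison lists were chosen with earlier results of these data known. Fitted changes are printed for Gfap, Vim, Aqp4, Slc1a2, C4b and for members with an unadjusted p below 0.05, and for Tgm1 in the fit without surrogate variables, chosen after its values were seen. Genes were filtered with filterByExpr, scaled by TMM and tested with edgeR 4.0.16 (R 4.3.3, quasi-likelihood test, Benjamini-Hochberg FDR 0.05), with 3 surrogate variables from svaseq (sva 3.50.0) on the filtered counts. DESeq2 1.42.0 was an alternative. CPM are TMM-scaled. Correlations used log2 CPM with a prior count of 2. The procedure was tested on simulated data. Each library is 1 mouse, replicates of a group differed by more than sampling noise (chi-square per degree of freedom 7.86 to 49.4), and the 4 libraries a group limit the precision, as do few reads for the genes of lowest count. Exon lengths, overlaps and 3′ untranslated regions came from the same annotation, microRNA and promoter sequences from RefSeq. Of the list genes, Chil1 is named Chi3l1 in the annotation and was therefore left out of its list, and Slc10a6 did not pass the filter.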

Additional observations from a re-analysis of the deposited data

Results flagged for a closer look

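In 5 of 76 groups of 4 libraries, a member had a value far from the other 3 by Dixon's test at the 95% level, where chance gives about 3.8. Kcnj10 was 287 CPM in hp708 replicate 4 and 187 to 200 CPM in the other hp708 libraries. Tgm1 was 5.7 CPM in the same library against 0.384 to 1.26 CPM. Mlc1 was 202 CPM in hp708 replicate 2 against 176 to 180 CPM. Cp was 19.9 CPM in hp708 replicate 3 against 28.3 to 29.2 CPM. Aldh1l1 was 48.2 CPM in hpCTL replicate 2 against 51.6 to 52.3 CPM.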

How the results depend on the processing

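The count of genes called over the whole table was 1. It became 0 without surrogate variables, with 1 or 2 of them, and with at least 10 counts required in every library. It was also 0 with surrogate variables from TMM-scaled counts and with the interferon list as covariate, fitted without surrogate variables. It became 127 in edgeR's likelihood ratio test and 96 in DESeq2 with 3 surrogate variables, 2 in each of them without, 12 with no filter, and 0 to 56 with 1 library left out (56 without hp708 replicate 1). Members called went from 0 to 1 (Cxcl10, -0.93 and -0.92) in the likelihood ratio test and DESeq2 with surrogate variables, and stayed at 0 in the other alternatives and with any library left out. Members higher in hp708 were 27 without surrogate variables in edgeR's quasi-likelihood and likelihood ratio tests and in DESeq2 and with the interferon covariate, 26 of the 36 tested with at least 10 counts, and 11 to 30 with 1 library left out. The homeostatic median was 0.05 with at least 10 counts and -0.02 to 0.05 with 1 library left out, and the reactive median -0.36 to 0.37. The sign of Vim turned to 0.18 without surrogate variables in all 3 tests, 0.02 with 1 surrogate variable, 0.34 with at least 10 counts, 0.04 with TMM-scaled counts and 0.30 with the interferon covariate. That of C4b turned to 0.07 without surrogate variables (0.08 in DESeq2), 0.05 with at least 10 counts and 0.02 with TMM-scaled counts. With the interferon covariate C4b was 0.31, Ggta1 0.04 and Cxcl10 -0.06, and that fit had no surrogate variables. Without surrogate variables or covariate Ggta1 was -0.16 and Cxcl10 -0.37, against -0.40 and -0.93 with surrogate variables. Requiring at least 10 counts moved Gfap from 0.20 to 0.52, Aqp4 from 0.16 to 0.33 and Cxcl10 to -0.46. It also moved Slc1a2 from 0.16 to 0.09 and Ggta1 from -0.40 to -0.15, with unadjusted edgeR p of 0.399 and 0.201. With 1 library left out, Gfap ran from -0.03 to 0.54, Vim from -0.41 to 0.40 and C4b from -0.49 to 0.25. The cause was not tested. Of 91 values of the 7 genes with printed changes under 13 alternatives, 73 kept their direction and side of the threshold. The last 2 alternatives, TMM-scaled counts and the interferon covariate, were chosen after seeing the data.

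Replicate numbers did not pair the samples (correlations of deviations -0.04 to 0.02, and 0 libraries correlated best with their own number). The replicate block, fitted without surrogate variables since both leave no residual degrees of freedom, called 1 gene and 0 members, with 26 members higher in hp708, 0.09 for Vim and 0.06 for C4b. With 4 libraries a group the intervals of the low-count reactive genes are wide, and differences inside them were not detectable.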
